A study of Mus musculus with 6 samples.

Results

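The 10 genes described here encode the core transcription factors of heart muscle: Gata4, Nkx2-5, Tbx5, Tbx20, Mef2a, Mef2c, Mef2d, Hand1, Hand2 and Srf. They were chosen by name, and every probe set annotated to exactly 1 of these symbols was taken, which gave 29 probe sets among 45037 and 10 genes among 18193 with a symbol of their own. Hearts of male C57BL/6J mice were profiled on 6 Affymetrix arrays, 2 in each of 3 groups. The high-FASN line and the low-FASN line carry a fatty acid synthase (FASN) transgene driven by the alpha-MHC promoter, a promoter of heart muscle cells, and the B6 control mice were age-matched. The age is not stated, no treatment is named, and the tissue label of every array, controls included, reads transgenic heart. Each FASN level comes from 1 line, and other differences between the lines cannot be told apart from it. The labels do not say whether a group's 2 arrays are separate hearts, so p-values measure only the scatter of these samples, which may be technical.

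These factors act together in the heart. Gata4 is a zinc-finger factor that binds GATA elements, Nkx2-5 is a homeodomain factor, and Tbx5 and Tbx20 belong to the T-box family. The Mef2 proteins and Srf are MADS-box factors, and Hand1 and Hand2 are basic helix-loop-helix factors named for their roles in heart and neural crest derivatives. Srf binds the CArG box, found at genes of the contractile apparatus and at immediate early genes, and its choice of targets depends on partners such as myocardin and the ternary complex factors. Class IIa histone deacetylases bind Mef2 proteins and repress their targets. Several of these factors also bind the control regions of one another's genes.

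Only short promoter stretches that match the known recognition elements of these factors are shown. Whether they link the factor genes to the target genes measured below was not tested. The regions come from RefSeq promoters of GRCm38.p6, and positions count back from the annotated gene start. Of the 10 genes, 7 matched the promoter table (Nkx2-5, Tbx20, Mef2a, Mef2c, Mef2d, Hand2 and Srf). Within 250 bases before the start, a CArG box, searched on both strands, was present in 1.47% of 32851 promoters and in 1 of these 7 genes, Srf itself, which carried it at -82 and at -62. GATA elements, searched as AGATAA or AGATAG and as TGATAA or TGATAG on both strands, were present in 26.5% of promoters and in 1 of the 7 genes, Hand2, at -215 and -172. The T-box element GGTGTG, on both strands, was found in 16.3% of promoters and in Mef2c among the 7. The MEF2 site was found in 2.92% of promoters and in 0 of the 7 genes. No match overlapped another of these motifs. A match is a description of the letters, and binding was not measured. Capitals mark the CArG boxes in Srf (chr17:46556180-46556279, minus strand) and the GATA elements in Hand2 (chr8:57320733-57320851, plus strand).
Srf: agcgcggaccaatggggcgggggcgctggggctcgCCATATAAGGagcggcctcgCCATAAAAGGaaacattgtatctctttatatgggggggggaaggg
Hand2: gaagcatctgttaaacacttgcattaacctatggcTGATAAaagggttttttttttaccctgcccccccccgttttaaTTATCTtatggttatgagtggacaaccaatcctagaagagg

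The Fasn probe set, the check of the labels, read 2268 and 2104 on the high-line arrays, 462 and 481 on the low-line arrays, and 213 and 187 on the control arrays. The values are linear signal intensities in arbitrary units, and arrays of one group correlated at 0.987 to 0.990 across probe sets against 0.969 to 0.977 between groups. Differences are given on the log2(signal + 16) scale, where the change of a dim gene is understated. Probe sets were tested with limma where their mean was at or above that of the median probe set, a signal of about 47.0, which left 22519 in all and 26 of the 29 described here. A probe set was called where the Benjamini-Hochberg adjusted p over all tested probe sets was below 0.05. The 3 that were too dim to test were 1418864_at of Gata4 (20.4 to 48.2), 1448750_at of Hand1 (8.43 to 47.3) and 1443854_at of Hand2 (1.36 to 19.6). Marker genes of the labelled tissue were bright: all 8 cardiomyocyte markers passed the filter on low signal, with a summed signal of 205691 to 231246 in the high line, 170916 to 173369 in the low line and 181287 to 189094 in control. In whole hearts, fewer cells of a type and less RNA per cell cannot be told apart.

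Of the 26 tested probe sets, 23 did not pass the test against control in the high line and 21 did not in the low line. For those not called, the 95% intervals reached from -0.89 to 1.32 and from -0.76 to 1.69, so a missing call is no sign of an equal level. In the high line 3 rose and 0 fell, all of them Mef2a or Mef2d probe sets (limma; at an unadjusted p below 0.05, 7 were higher and 2 lower). That is 11.5% of the 26, where 14.4% of all tested probe sets were called, 8.18% higher and 6.18% lower. In the low line 3 rose and 2 fell, or 19.2% against a background of 24.3% (13.5% higher and 10.8% lower). Between the lines 4 were higher and 2 lower in the high line, or 23.1% against 18.6% (9.69% higher and 8.87% lower). The share called was therefore near or below the background in both comparisons with control. The median difference of the 26 was 0.0958, 0.0265 and 0.0566 in these 3 comparisons, and over all tested probe sets it was 0.0367, 0.0183 and 0.00546. Both comparisons with control share the same 2 control arrays. Without an intensity trend in limma's variance estimate, 1, 2 and 0 of the 26 were called, where 5.48%, 15.9% and 6.43% of all tested probe sets were. The arrays of the compared groups did not overlap in 13, 17 and 13 of the 26, where this held for 56.2%, 65.0% and 59.2% of all tested probe sets. Single arrays moved these counts. The high-line count of 3 was 1 without either low-line array or either control array, and 5 without either high-line array. The low-line count of 5 was 1 without either low-line array, 2 without either control array and 8 without the first high-line array. Between the lines the count of 6 was 1 without the first low-line array and 0 without the second. Among the 10 genes, 6 had a called probe set in some comparison (Tbx20, Mef2a, Mef2c, Mef2d, Hand2 and Srf) and 4 had none (Gata4, Nkx2-5, Tbx5 and Hand1).

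**Figure D1:**
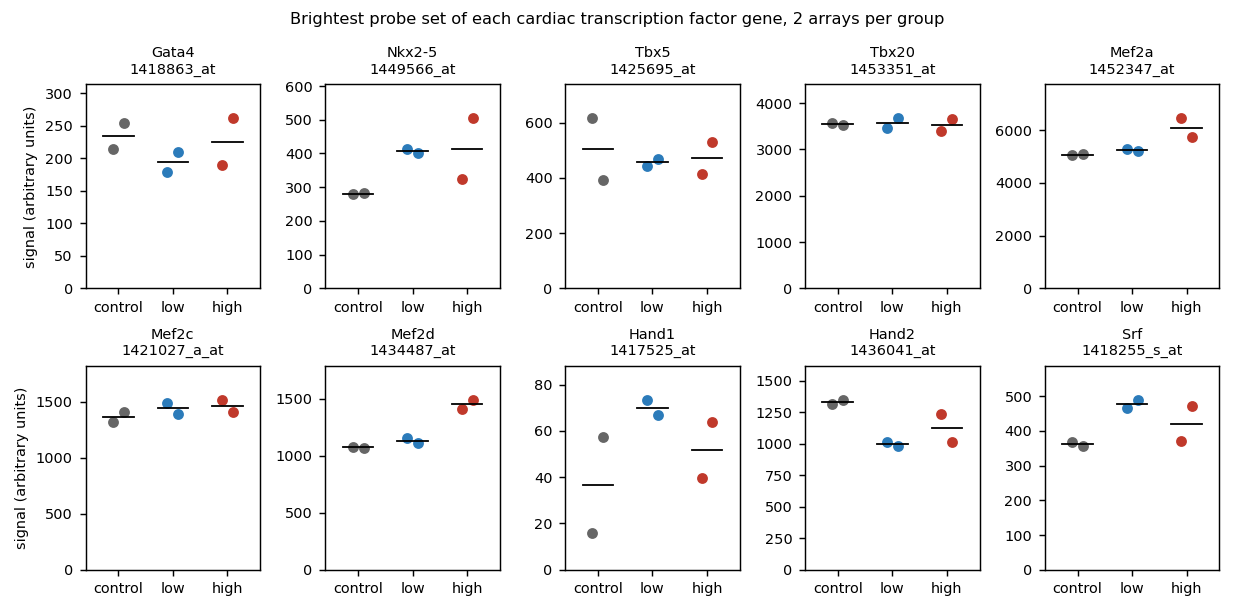
Signal (arbitrary units, linear axes from 0) of the brightest probe set of each of the 10 genes on the 2 arrays of each group, with bars at the group mean. Mef2d 1434487_at is higher on both high-line arrays than on the other 4, Hand2 1436041_at is lower on both low-line arrays than in control, and Tbx20 1453351_at lies between 3392 and 3672 on all 6.

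Gata4, which is needed for early heart development and takes part in the adult growth response, had no called difference. Probe set 1418863_at read 189 and 261 on the high-line arrays, 178 and 209.5 on the low-line arrays, and 215 and 254 on the control arrays. The high-line arrays lay on either side of both control arrays. The low-line arrays lay below both control arrays, by -0.25 on the log2 scale (95% interval -0.65 to 0.14; limma, adjusted p = 0.337). For the high line the difference was -0.07, with an interval of -0.46 to 0.33.

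Nkx2-5, the homeodomain factor that marks the heart lineage, was higher than control on all 4 transgenic arrays, and its test depended on the arrays and settings used. Its only probe set, 1449566_at, read 324 and 504 on the high-line arrays, 412 and 401 on the low-line arrays, and 280.2 and 282 on the control arrays. The difference from control was 0.50 in the high line (95% interval 0.11 to 0.89; limma, adjusted p = 0.0875) and 0.51 in the low line (interval 0.12 to 0.89; adjusted p = 0.0598). The 2 high-line arrays were themselves far apart, and the lines differed by -0.01 with an interval of -0.39 to 0.38. Without the first high-line array the high-line difference was 0.81 and was called (adjusted p = 0.00346). In the low line the difference was called without either high-line array (adjusted p = 0.00456 and 0.00557), in the fit on the 4 arrays compared (adjusted p = 0.00524), with the replicate number as a block (adjusted p = 0.0431), after median centring (adjusted p = 0.0497) and with 1 probe set per gene (adjusted p = 0.0497).

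Among the T-box genes, Tbx5, a regulator of chamber and conduction system genes, had no call. Probe set 1425695_at read 414 and 532 on the high-line arrays, 443 and 470 on the low-line arrays, and 616 and 394 on the control arrays, with the control arrays as the widest pair. The dimmer probe set 1425694_at read 69.4 and 84.3 on the high-line arrays against 44.9 and 59.2 on the control arrays and 45.1 and 45.0 on the low-line arrays. The high-line values stood above the other 4, with a difference from control of 0.45 (limma, adjusted p = 0.248) and between the lines of 0.60 (95% interval 0.06 to 1.14; adjusted p = 0.114).

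Tbx20, which holds the adult cardiomyocyte programme in place, gave probe sets with unlike patterns. The brightest, 1453351_at, read 3392 and 3662 on the high-line arrays, 3459 and 3672 on the low-line arrays, and 3579.9 and 3524 on the control arrays. Its differences were -0.01 in the high line (95% interval -0.14 to 0.12) and 0.00 in the low line (interval -0.13 to 0.14), so at this probe set changes beyond these bounds were not seen. Probe set 1425158_at read 877 and 617 on the high-line arrays, 540.0 and 430.3 on the low-line arrays, and 591 and 531 on the control arrays. Both high-line arrays were above the other 4, and the lines differed by 0.59 ± 0.16 (SE), a 1.51-fold higher signal in the high line (limma, adjusted p = 0.0316). Against control the high line differed by 0.38 (adjusted p = 0.151) and the low line by -0.21 (adjusted p = 0.386). The high-line difference was called without the second high-line array (0.63, adjusted p = 0.0158) and with the replicate number as a block (adjusted p = 0.034). The call between the lines was kept in 10 of 16 alternatives. It was lost without the first high-line array, without either low-line array and without the first control array, and its difference ranged from 0.34 to 0.84 over the alternatives (adjusted p from 0.0037 to 0.21). The third probe set, 1422219_a_at, lay between 53.3 and 79.7 with no call.

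**Figure D2:**
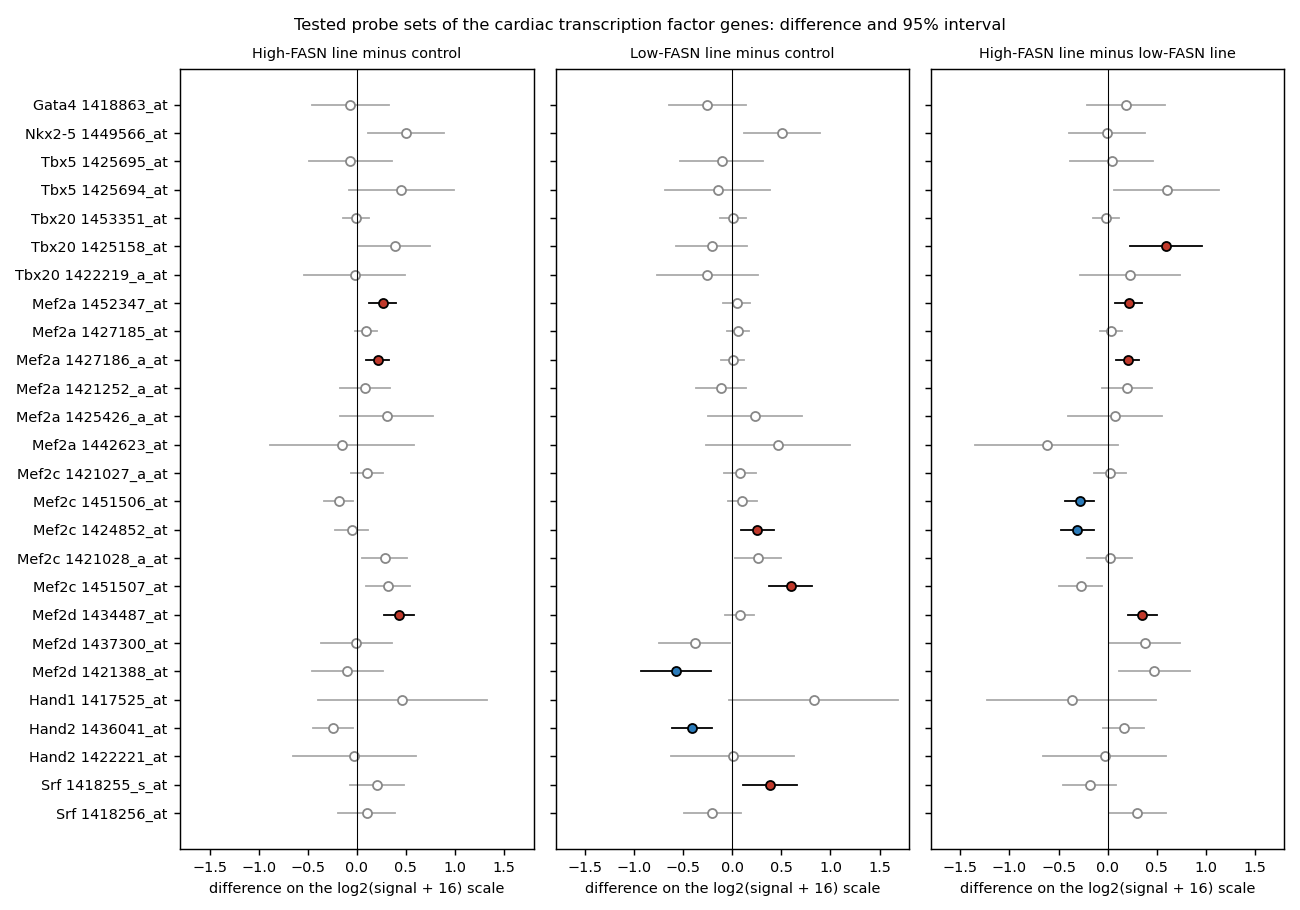
Difference on the log2(signal + 16) scale for each of the 26 tested probe sets, with 95% intervals from limma, in the 3 comparisons; filled points were called (red higher, blue lower in the first-named group). The Mef2 genes hold 14 of the 26 probe sets and 11 of the 14 calls, and the dim probe sets of Hand1 and Mef2a have the widest intervals.

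The 3 Mef2 genes hold 14 of the 26 tested probe sets and had 11 of the 14 calls. By comparison this was 3 of 14 in the high line (21.4%), 3 of 14 in the low line (21.4%) and 5 of 14 between the lines (35.7%), where 14.4%, 24.3% and 18.6% of all tested probe sets were called. The low-line share was thus below the background. Mef2a is the family member with the most probe sets here, 6, and encodes a MADS-box factor abundant in adult heart. Probe set 1452347_at read 6451 and 5743 on the high-line arrays, 5280.4 and 5206 on the low-line arrays, and 5048 and 5104 on the control arrays. Both high-line arrays were above the other 4. The rise over control was 0.26 ± 0.06 (SE), or 1.20-fold (limma, adjusted p = 0.020), and the high line was above the low line by 0.21 (adjusted p = 0.0374), while the low line differed from control by 0.05 (adjusted p = 0.625). Probe set 1427186_a_at gave a similar picture, with 4418 and 4265 on the high-line arrays, 3813 and 3710.4 on the low-line arrays, and 3685 and 3806 on the control arrays. Its rise was 0.21 ± 0.05 (SE), or 1.16-fold (adjusted p = 0.0249), and the high line was above the low line by 0.21 (adjusted p = 0.0234). The other bright probe sets moved less. At 1427185_at the high line read 4904 and 5120.2 against 4719.8 and 4674 on the control arrays, a difference of 0.09 (adjusted p = 0.258), and at 1421252_a_at the groups overlapped, although without the second high-line array the lines differed there by 0.36 (adjusted p = 0.0361). The dim probe sets 1425426_a_at and 1442623_at had no call, and the latter read 121 on the first low-line array and 39.2 to 56.9 on the other 5.

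The Mef2a rises were small and sensitive to the processing. Against control, the call at 1452347_at was kept in 9 of 17 alternatives and that at 1427186_a_at in 7 of 16. Both were lost after median centring (adjusted p up to 0.161 and 0.178 over the alternatives), without either low-line array and without either control array, and the second also without the first high-line array. Between the lines, the call at 1452347_at was kept in 6 of 17 alternatives and lost when any array other than the second high-line array was left out. The call at 1427186_a_at between the lines was kept in 9 of 16, and was lost without the first high-line array or either low-line array.

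Mef2c, which is required in the early heart field and is also expressed outside muscle, was higher in the low line. Probe set 1451507_at read 715.8 and 659 on the low-line arrays, 526 and 606 on the high-line arrays, and 464 and 436 on the control arrays, and the 3 groups did not overlap. The rise in the low line was 0.59 ± 0.10 (SE), or 1.51-fold (limma, adjusted p = 0.00239), and was called in all 16 alternatives run (adjusted p at most 0.0322). In the high line the difference was 0.32 (95% interval 0.09 to 0.54; adjusted p = 0.0635), and between the lines -0.28 (adjusted p = 0.0835). The former was called without the first high-line array (0.42, adjusted p = 0.0379) and with the filter at the 75th percentile (adjusted p = 0.0496), and the latter without the second high-line array (-0.38, adjusted p = 0.0398). Probe set 1424852_at read 1349.6 and 1232 on the low-line arrays, 1079.7 and 999.6 on the high-line arrays, and 1065 and 1089 on the control arrays. It rose by 0.26 in the low line (1.19-fold; adjusted p = 0.0337) and was lower in the high line than in the low line by -0.31 (adjusted p = 0.0202). At 1451506_at, with 1371 and 1409.6 on the low-line arrays, 1114 and 1159.8 on the high-line arrays, and 1257 and 1329 on the control arrays, only the difference between the lines passed (-0.29, adjusted p = 0.0159). The high line lay below control there on both arrays (-0.18, adjusted p = 0.101). Probe sets 1421027_a_at and 1421028_a_at had no call, with differences in the low line of 0.08 and 0.26 (adjusted p = 0.459 and 0.0986). That at 1421028_a_at was called without either high-line array (adjusted p = 0.0421 and 0.0395) and in the fit on the 4 arrays compared (adjusted p = 0.0417), and in the high line it was called at 0.42 without the second high-line array (adjusted p = 0.0219).

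The calls of Mef2c other than that at 1451507_at depended on single arrays. For 1424852_at against control the call was lost without either low-line array and without either control array (kept in 9 of 16 alternatives, adjusted p up to 0.229). Between the lines it was kept in 12 of 16 and lost without the second high-line array or either low-line array. The call at 1451506_at was kept in 13 of 16 and lost without either low-line array.

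Mef2d, the family member linked to stress-dependent remodelling in adult heart, had the firmest difference of the high line among these genes. Probe set 1434487_at read 1410.3 and 1489.5 on the high-line arrays, 1154 and 1107 on the low-line arrays, and 1078 and 1066 on the control arrays. The high-line arrays stood above the other 4. The rise over control was 0.43 ± 0.07 (SE), or 1.35-fold (limma, adjusted p = 0.00278), and it passed in all 17 alternatives run (adjusted p at most 0.0498). The lines differed by 0.35 (1.28-fold, adjusted p = 0.00636), a call kept in 15 of 17 alternatives and lost without the second low-line array, and the low line differed from control by 0.08 (95% interval -0.07 to 0.22).

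The other Mef2d probe sets did not follow it in the comparisons with control. Probe set 1421388_at read 163 and 196 on the high-line arrays, 127 and 122 on the low-line arrays, and 180.4 and 206 on the control arrays. It fell in the low line by 0.57 on the log2 scale, or 1.49-fold (adjusted p = 0.0281), and this call was lost without either low-line array and without either control array (kept in 10 of 15 alternatives, adjusted p up to 0.159). The high line lay at -0.10 from control (interval -0.46 to 0.26). Probe set 1437300_at read 252 and 348 on the high-line arrays, 211 and 239 on the low-line arrays, and 280.2 and 317 on the control arrays, with -0.38 in the low line (adjusted p = 0.119) and -0.01 in the high line. Without the first high-line array it was called in the low line (adjusted p = 0.0479) and between the lines (0.60, adjusted p = 0.0316). Within each array, the log2 value of 1434487_at exceeded that of 1421388_at by 2.99 and 2.83 on the high-line arrays, 3.03 and 3.03 on the low-line arrays, and 2.48 and 2.29 on the control arrays. The transgenic arrays thus had the larger spacing in both lines, with no overlap with control. Whether this reflects transcript forms was not tested, and the spacing is not a ratio of amounts.

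**Figure D3:**
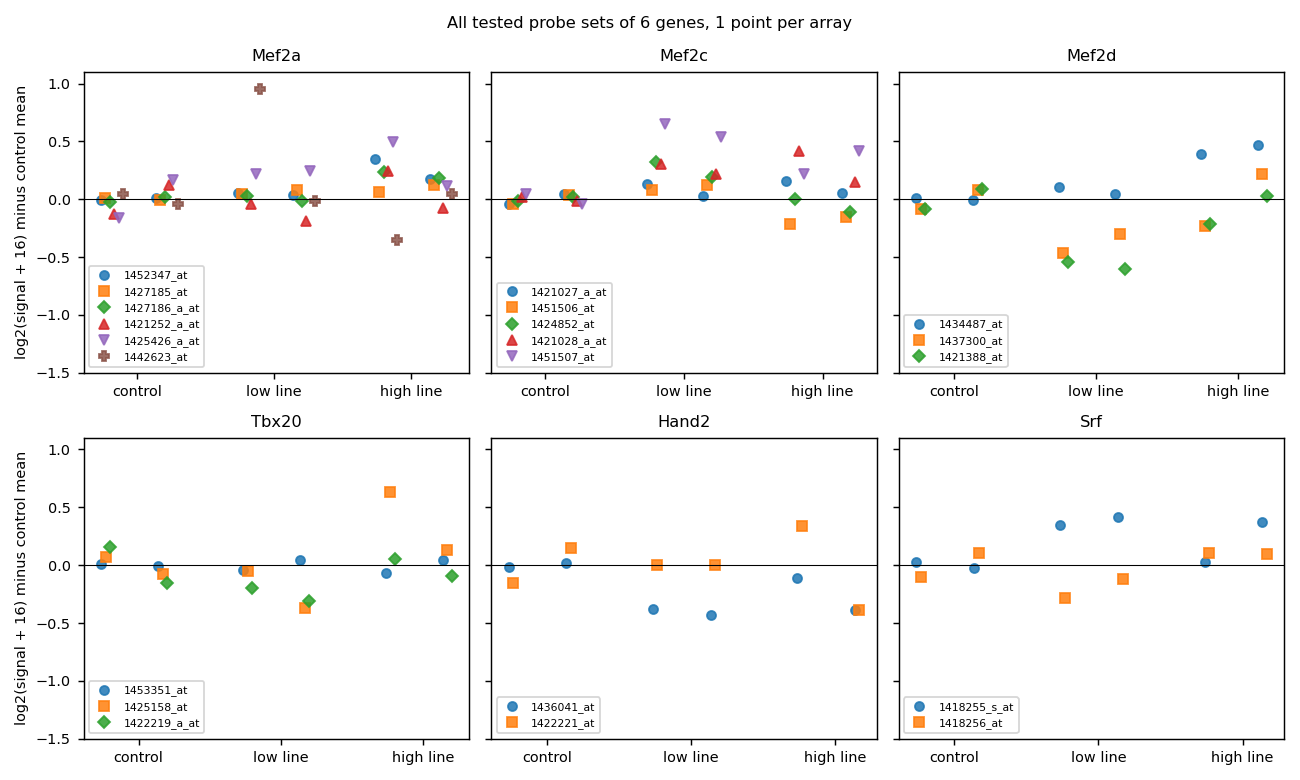
Every tested probe set of the 6 genes with a call, as log2(signal + 16) on each array minus the control mean of that probe set; 1 point is 1 array. In Mef2d, 1434487_at lies above the other probe sets in both lines, and in Mef2c the low-line points of 1451507_at and 1424852_at lie above control.

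Hand1 and Hand2, which act in the left and right sides of the forming heart, differed in brightness and in pattern. Hand1 probe set 1417525_at was close to the filter, at 39.7 and 64.1 on the high-line arrays, 73.4 and 66.8 on the low-line arrays, and 15.9 and 57.5 on the control arrays. The low-line arrays lay above the other 4, by 0.83 from control with a wide interval of -0.03 to 1.69 (limma, adjusted p = 0.151). Without the second control array that difference was 1.43 and was called (adjusted p = 0.0304). Hand2 probe set 1436041_at read 1234 and 1014 on the high-line arrays, 1016 and 981 on the low-line arrays, and 1313 and 1348 on the control arrays. All 4 transgenic arrays were below both control arrays. The fall in the low line was 0.41 ± 0.09 (SE) on the log2 scale, or 1.33-fold (adjusted p = 0.0102), and the high line lay at -0.25 (95% interval -0.45 to -0.04; adjusted p = 0.109). The lines differed by 0.16 (adjusted p = 0.258). Without the first high-line array the high line lay at -0.39 and was called (adjusted p = 0.0136), and without the second the lines differed by 0.30 (adjusted p = 0.0242). The low-line call was kept in 13 of 17 alternatives and lost without either low-line array and without the second control array (adjusted p up to 0.076). The dim probe set 1422221_at of Hand2 read 45.5 to 85.4 with no call, and its interval in the low line was -0.62 to 0.63.

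Srf, whose promoter with its pair of CArG boxes is shown above, rose in the low line at 1 of its 2 probe sets. Probe set 1418255_s_at read 370 and 472 on the high-line arrays, 465 and 489 on the low-line arrays, and 368 and 355 on the control arrays. The rise in the low line was 0.39 ± 0.12 (SE), or 1.31-fold (limma, adjusted p = 0.0464), and the high line differed by 0.20 (adjusted p = 0.318). The call was lost with quantile normalization and with cyclic loess, and without either low-line array and without either control array (kept in 9 of 17 alternatives, adjusted p up to 0.204). The suffix of this probe set, in the array maker's naming, marks probes that may match transcripts of more than 1 gene, although the annotation lists Srf alone. Probe set 1418256_at read 296 and 294 on the high-line arrays, 222 and 252 on the low-line arrays, and 254 and 296 on the control arrays. There the low line lay below control, at -0.20 (adjusted p = 0.296), so the probe sets of Srf pointed in opposite directions in that line. The difference between probe sets was not tested.

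The genes whose 6-array pattern lay nearest to each called gene were found from the brightest probe set, by the Euclidean distance between log2 profiles centred on their own mean. For Mef2d these were Sec24c (distance 0.0561, Pearson r = 0.996 over 6 arrays) and Efnb2 (0.0816). For Mef2a they were Rab3gap1 (0.0236) and Gsn (0.0319), for Mef2c Stap2 (0.0445) and Abhd17c (0.0565), and for Hand2 Yipf3 (0.0594) and Pigb (0.0805). For Srf they were Lhpp (0.0576) and Mob1b (0.0757), and for Tbx20, which varied by only 0.11 in all, 2310030G06Rik (0.0367) and Tmod3 (0.049). These distances describe likeness over 6 arrays that share their group structure, and no more.

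Among partner and cofactor genes of these factors, 10 rose in each line. In the lists from here on, a gene stands for its brightest probe set, among 11498 genes tested. Of 32 tested partner genes, 10 rose and 0 fell in the high line (limma; at an unadjusted p below 0.05, 13 were higher and 0 lower, and without an intensity trend 4 rose and 0 fell). Over all genes 9.97% rose and 6.96% fell. In the low line 10 rose and 2 fell, where 14.9% and 12.7% of all genes did. Between the lines 5 were higher and 3 lower, against 11.4% and 9.18%. Without the first control array 4 rose in the high line, and without either low-line array 2 were higher and 1 lower between the lines. The list's median was 0.14, 0.06 and 0.03 in the 3 comparisons, against 0.04, 0.02 and 0.01 over all genes.

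The partner list holds 3 genes of the myocardin family (Myocd, Mrtfa and Mrtfb), 3 ternary complex factors (Elk1, Elk3 and Elk4) and the LIM protein genes Csrp1, Csrp2, Csrp3 and Fhl2, a grouping made after their values were seen. Of these, Myocd, Elk3, Elk4, Csrp1 and Csrp2 rose in both lines, and the others had no call against control. Myocd, the myocardin gene, read 1466 and 1293 on the high-line arrays, 1116 and 1090.4 on the low-line arrays, and 852 and 808 on the control arrays. The 3 groups did not overlap, and it rose by 0.72 ± 0.08 (SE) in the high line (adjusted p = 0.00042) and, in the low line, by 0.40 (adjusted p = 0.00523). A second Myocd probe set had no call, at -0.16 and 0.04. Csrp2, a LIM protein that bridges Srf and GATA factors in smooth muscle, read 1605 and 1583 on the high-line arrays, 1849 and 1639.5 on the low-line arrays, and 801 and 692 on the control arrays. It rose by 1.08 (2.12-fold, adjusted p = 6.89e-05) and 1.21 (2.31-fold, adjusted p = 2.19e-05). Its relative Csrp1 rose by 0.60 and 0.76. Elk4, a ternary complex factor that binds Srf, rose by 0.59 on the low-line arrays (adjusted p = 0.000292), and by 0.27 in the high line (adjusted p = 0.0258), at 1 of its 2 tested probe sets. The Elk4 call in the high line was kept in 8 of 17 alternatives and lost without any array but the first high-line array (adjusted p up to 0.168). The Csrp1 call in the high line was lost without the first control array (adjusted p = 0.0532). The calls against control of Myocd and Csrp2, and the low-line calls of Csrp1 and Elk4, were kept in all 17 alternatives. Elk3 rose by 0.45 and 0.34, and its calls were lost without the first control array in both lines and, in the low line, also without the second control array or the second low-line array (adjusted p up to 0.155). Mrtfa lay at -0.21 on the high-line and 0.05 on the low-line arrays, and Mrtfb at -0.22 and -0.19 (adjusted p = 0.195 and 0.221), which were called without the second control array. Elk1 lay at 0.06 and 0.46 (adjusted p = 0.897 and 0.204). The summed signal of the smooth muscle markers was 11644 to 11999 on the high-line arrays and 11487 to 11731 on the low-line arrays. On the control arrays it was 5488 to 5624. Most of it came from Acta2, with a mean of 8623 for the high-line arrays, 9057 for the low-line arrays and 3701 for control. Tagln, Myh11 and Cnn1 also rose in both lines. Smtn lay at 0.05 on the high-line and -0.43 on the low-line arrays, and Lmod1 was too dim to test. The part of smooth muscle signal in the rises of the partner genes was not tested.

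Chromatin regulators that act with these factors moved in more than one way. Jarid2, a Polycomb-associated protein known to restrain cardiac gene expression, read 1013 and 950.4 on the high-line arrays, 1025 and 1011 on the low-line arrays, and 623 and 595 on the control arrays. It rose by 0.67 and 0.73 (adjusted p = 0.000437 and 0.000161), and all 3 of its tested probe sets rose in both lines. Hdac5, a class IIa deacetylase that represses Mef2 proteins, went opposite ways in the lines. It read 663 and 675 on the high-line arrays, 319 and 286 on the low-line arrays, and 459 and 542 on the control arrays. It rose by 0.41 in the high line (adjusted p = 0.034) and fell by 0.69 on the log2 scale on the low-line arrays (adjusted p = 0.00167), and the high line was above the low line by 1.11 ± 0.11 (SE), or 2.15-fold (adjusted p = 0.000281). The rise in the high line was kept in 10 of 17 alternatives and lost without either high-line array, the first low-line array or the first control array (adjusted p up to 0.2), while the fall and the difference between the lines were kept in all 17. Smarca4, the ATPase of the BAF remodelling complex, read 628 and 658 on the low-line arrays, 1105 and 1060.0 on the high-line arrays, and 903 and 1062 on the control arrays. It fell by 0.60 on the log2 scale in the low line (adjusted p = 0.00131) at 1 of 2 probe sets. Lmcd1, a cofactor of GATA factors, rose by 0.67 on the low-line arrays (adjusted p = 0.00091), and lay at 0.11 in the high line. Hdac5 carried a MEF2 site at -20 (chr11:102230173-102230227, minus strand). It is shown, with the site in capitals, because this gene had the largest difference between the lines among the partners. The share of partner genes with a MEF2 site was not counted, and a link between the site and the Hdac5 signal was not tested.
Hdac5: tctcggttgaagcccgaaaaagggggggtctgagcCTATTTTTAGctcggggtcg

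**Figure D4:**
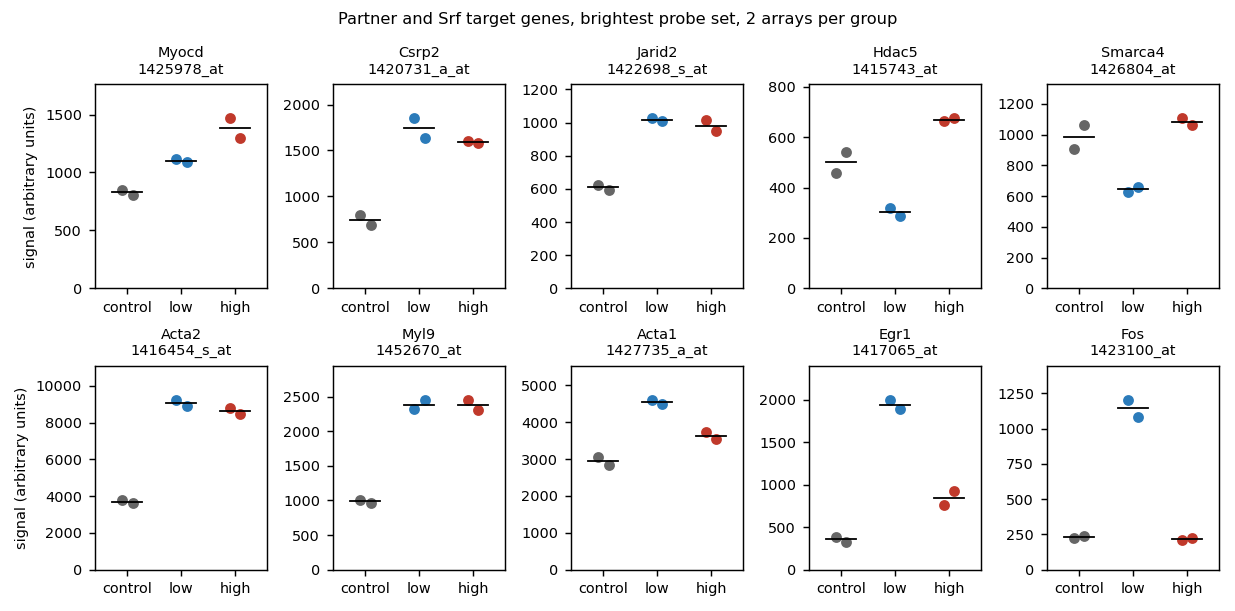
Signal (arbitrary units, linear axes from 0) of 5 partner genes and 5 Srf target genes on the 2 arrays of each group, with bars at the group mean. Csrp2, Jarid2, Acta2 and Myl9 are higher on all 4 transgenic arrays than in control, Hdac5 is high in the high line and low in the low line, and Fos is high in the low line alone among the 3 groups.

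Of 37 other cardiac transcription factor genes listed, 35 were on the array and 29 were tested. In the high line 7 rose and 2 fell, in the low line 4 rose and 2 fell, and between the lines 2 were higher and 2 lower. Over all genes 9.97% rose and 6.96% fell in the high line, the low line had 14.9% and 12.7%, and 11.4% and 9.18% were higher and lower between the lines, so the low-line rises, 13.8% of the 29, were near the background. The 9 calls in the high line became 1 without the second control array, 2 without the first, 3 without the first high-line array and 5 without the second, and the 4 between the lines became 1 without the second low-line array. Irx3, a homeobox gene of the conduction system, read 2135 and 2009 on the high-line arrays, 2072 and 1993 on the low-line arrays, and 1646 and 1478 on the control arrays. It rose by 0.41 and 0.38 (limma, adjusted p = 0.00497 and 0.00406). Prox1, a homeobox factor of lymphatic endothelium and heart muscle, rose by 0.59 and 0.44 (adjusted p = 0.00202 and 0.00518) at 1 of 3 probe sets. Nfatc2, a calcineurin-dependent factor, rose by 0.93 and 1.12 at 1 of 3 probe sets, with low-line arrays as far apart as 402 and 724. Meis1 rose by 0.50 in the high line (adjusted p = 0.0232). In the high line, leaving out either control array or the first high-line array ended the Meis1 and Nfatc2 calls (adjusted p up to 0.0995 and 0.104), and leaving out the second control array ended that of Irx3 (adjusted p = 0.0511). In the low line, leaving out the second low-line array ended those of Prox1 (adjusted p = 0.0557) and Tbx18 (adjusted p = 0.167), and the first control array also ended that of Tbx18. Klf15, which restrains hypertrophic genes, fell in the low line by 0.54 (399 and 426 against 625 and 587 in control; adjusted p = 0.00237). Tbx18, a gene of the epicardium, read 167 and 265 on the low-line arrays and 87.5 to 120 elsewhere, and rose by 0.91 (adjusted p = 0.0187) at 1 of 2 probe sets. Epicardial and mesothelial markers, 6 in all, summed to 1460 to 1599 in the low line and 943 to 1060 in control. In the high line they summed to 1407 to 1508. The list was mixed, with 3 of the 6 called higher and 1 lower in the low line, and 2 and 0 in the high line. The part of these markers in the Tbx18 result was not tested.

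Known target genes of these factors in heart muscle were counted with the deposited scaling first. Of 26 tested, 14 rose and 2 fell in the high line, 2 rose and 7 fell in the low line, and 16 were higher and 1 lower in the high line than in the low line. Over all genes 9.97% and 6.96%, 14.9% and 12.7%, and 11.4% and 9.18% were called in these directions. The medians were 0.21, -0.11 and 0.27, against 0.04, 0.02 and 0.01 over all genes. These counts followed the scaling and the arrays used. With quantile normalization they became 8 and 3, 5 and 6, and 7 and 3, with median centring 5 and 2, 2 and 6, and 14 and 1, and without an intensity trend 1 and 0, 1 and 2, and 3 and 0. In the high line there were 5 higher and 1 lower without the first control array and 4 and 1 without the second. The high-line counts were 8 and 2 without either low-line array. They grew to 17 and 2 with cyclic loess and without the second high-line array, and were 10 and 3 without the first high-line array. With cyclic loess the low line had 5 and 6. In the low line there were 2 higher and 14 lower without either high-line array and in the fit on the 4 arrays compared, 2 and 3 without the first low-line array, and 1 and 4 without the second. Between the lines there were 9 and 1 without the first low-line array and 10 and 1 without the second. Of the 8 cardiomyocyte markers, 5 were higher and 0 lower in the high line (limma; 7 and 0 at an unadjusted p below 0.05) and 0 higher and 1 lower in the low line (0 and 4), and 6 of them are also on this list. Their part in the result was not tested.

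Myh7, the slow beta-myosin heavy chain, read 2692 and 2497 on the high-line arrays, 1129 and 1208 on the low-line arrays, and 1444 and 1487 on the control arrays. It rose by 0.82 ± 0.07 (SE) in the high line (1.76-fold; limma, adjusted p = 7.48e-05) and fell by 0.32 in the low line (adjusted p = 0.00708). The natriuretic peptide genes parted. Nppa read 26940.2 and 25160.7 on the high-line arrays, 19282 and 19210.2 on the low-line arrays, and 20509.8 and 20774 on the control arrays, and rose in the high line by 0.33 (adjusted p = 0.00198). Nppb read 7681 and 7010.4 on the high-line arrays, 9438 and 9284 on the low-line arrays, and 6405 and 6141 on the control arrays, and rose by 0.58 on the low-line arrays (adjusted p = 0.000131), and by 0.23 in the high line (adjusted p = 0.0272). The atrial light chain genes Myl7 and Myl4 rose by 0.44 and 0.32 on the high-line arrays (adjusted p = 0.000721 and 0.00219), and Myl7 also rose in the low line, by 0.29 (adjusted p = 0.00384; lost without the second low-line array, adjusted p = 0.0511). The summed signal of 6 atrial markers was 71558 to 77016 in the high line and 62034 to 62243 in the low line. In control it was 59690.4 to 60428. Nppa, Myl7 and Myl4 are themselves among the 6 and make up most of this sum, so it is not separate from their values. Of the 6, 4 rose and 0 fell in the high line, and 2 rose and 0 fell in the low line. The low-line means of Nppa, Sln and Bmp10 lay below control, and those of Myl7, Myl4 and Dkk3 above. The cardiac troponin T gene Tnnt2 rose by 0.24 in the high line (adjusted p = 0.0439) and fell by 0.32 in the low line (adjusted p = 0.00754). Corin, the protease that activates the atrial peptide, and the actin-binding Xirp1 fell in both lines, by 0.28 and 0.44 on the high-line arrays and by 0.40 and 0.57 on the low-line arrays. Des, the desmin gene, fell by 0.35 in the low line (adjusted p = 0.00282).

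Among these, the high-line rise of Tnnt2 was kept in 7 of 17 alternatives (adjusted p up to 0.308, with quantile normalization) and lost without any array but the second high-line array. Its fall in the low line was lost without an intensity trend (limma, adjusted p = 0.0957). That call was also lost without the first or second low-line array or the first control array (-0.34, -0.31 and -0.29 in that order). The high-line rise of Nppb was kept in 8 of 17 alternatives (limma, adjusted p up to 0.19 over all of them). It was lost without any array but the second high-line array. The rise of Nppb in the low line was kept in all 17. The low-line fall of Myh7 was lost without the first low-line or the second control array (adjusted p = 0.0729 and 0.0551). The high-line falls of Corin and Xirp1 were lost without the first and the second control array in that order (adjusted p = 0.0567 and 0.114).

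A GATA element was found near the start of 14 of 29 muscle target genes with a promoter entry, or 40% of their promoters, against 26.5% of all. The list was chosen from known targets of these factors, so this share describes the list. The stretches at both peptide genes are shown because their signals parted between the lines: Nppa with 1 element at -122 (chr4:148000565-148000640, plus strand) and Nppb with 2, at -95 and -84 (chr4:147985770-147985856, plus strand).
Nppa: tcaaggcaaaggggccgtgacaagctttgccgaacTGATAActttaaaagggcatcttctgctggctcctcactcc
Nppb: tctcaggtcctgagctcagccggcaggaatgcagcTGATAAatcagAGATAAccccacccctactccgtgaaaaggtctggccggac

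Srf targets were called higher in both lines more often than lower. Of 24 genes listed 21 were tested, and 14 rose and 0 fell in the high line (limma; 15 and 0 at an unadjusted p below 0.05, and 6 and 0 without an intensity trend). In the low line 13 rose and 1, Smtn, fell, and between the lines 6 were higher and 5 lower. Over all genes 9.97% rose and 6.96% fell in the high line, 14.9% and 12.7% did in the low line, and 11.4% and 9.18% were higher and lower between the lines. In each line 7 of the 21 had no call. Without the second control array 8 rose in the high line, and between the lines there were 2 higher and 2 lower without the first low-line array and 3 and 3 without the second. Smtn, a smooth muscle gene, fell by 0.43 in the low line (adjusted p = 0.0132), a call lost without either low-line array or the second control array. The medians were 0.33, 0.47 and 0.00, against 0.04, 0.02 and 0.01 over all genes. The smooth muscle genes Acta2, Myl9 and Tagln rose by more than the list's median in both lines. In the low line the immediate early genes Egr1 and Fos, given below, rose further. Acta2, smooth muscle actin, read 8780.3 and 8466 on the high-line arrays, 9237 and 8878 on the low-line arrays, and 3792 and 3610.3 on the control arrays, and rose by 1.22 and 1.29 (adjusted p = 8.45e-07 and 7.25e-07). Myl9, a regulatory light chain, read 2453 and 2300.0 on the high-line arrays, 2321 and 2446 on the low-line arrays, and 1012 and 965 on the control arrays, and rose by 1.25 and 1.26. Tagln, transgelin, rose by 0.82 and 0.61.

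The immediate early genes Egr1 and Fos differed between the lines. Egr1, a zinc-finger gene induced through Srf and its ternary complex partners, read 758 and 924 on the high-line arrays, 2001 and 1889 on the low-line arrays, and 387 and 327 on the control arrays. The groups did not overlap, and it rose by 1.20 in the high line (adjusted p = 0.000154) and, in the low line, by 2.40 (adjusted p = 1.79e-06). Fos read 214 and 227 on the high-line arrays, 1205 and 1083 on the low-line arrays, and 227 and 240.3 on the control arrays. It rose by 2.21 ± 0.10 (SE) in the low line (4.64-fold, adjusted p = 2e-06), and lay at -0.08 in the high line (adjusted p = 0.663). Other immediate early genes of the list, named after their values were seen, differed less or had no call. Ier2 rose by 0.35 in the high line (adjusted p = 0.0385) and, in the low line, by 0.67 (adjusted p = 0.000997). Between the lines it differed by -0.32 (adjusted p = 0.0442), and this call and that in the high line were lost when any 1 array was left out. Ccn1 rose in the low line by 0.55 (adjusted p = 0.0322; lost without either low-line array or the first control array), and its arrays overlapped between the lines, at 1148 and 1514 on the high-line arrays and 1550 and 1478 on the low-line arrays (-0.20, adjusted p = 0.436). Junb had no call, at -0.19 between the lines (adjusted p = 0.51). Acta1, skeletal actin, read 3719 and 3531 on the high-line arrays, 4603 and 4504 on the low-line arrays, and 3049 and 2836 on the control arrays, rising by 0.30 and 0.63, the former lost without the second control array (adjusted p up to 0.112). Actc1, cardiac actin, rose in the high line by 0.24 (adjusted p = 0.0171) and lay at -0.14 in the low line. That rise was kept in 8 of 17 alternatives and lost with quantile normalization (adjusted p = 0.45) and without either low-line array or either control array. The probe sets of Tpm1 disagreed, from -0.40 to 0.75 in the high line, with 2 higher and 1 lower of 4.

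All 6 smooth muscle markers are also on the Srf list, and Acta2 makes up most of their sum. Their summed signal was 11644 to 11999 in the high line, 11487 to 11731 in the low line and 5488 to 5624 in control, and 4 of the 5 tested rose in both lines. Of 6 fibroblast markers 4 rose in the high and 5 in the low line, with sums of 31691 to 32152, 31041 to 32241 and 26202 to 27015. Lung and airway epithelium markers summed to 1873 to 2172 on the high-line arrays. Their low-line sums were 306 to 307, and their control sums 169 to 229. Of the 5 tested, 3 rose on the high-line and 1 on the low-line arrays. The high-line sum came mostly from Scgb1a1, Scgb3a2 and Cyp2f2, with means of 1147, 513 and 221 against control means of 4.33, 13.3 and 40.3. Sftpc and Sftpb differed little there, at 61.6 and 72.7 against 56.6 and 70.0. Sftpa1 was too dim to test. Of 6 endothelial markers 3 rose in each line, with sums of 5990 to 6282 in the high line, 6451 to 6492 in the low line and 4828 to 4973 in control. Of the adipocyte markers, Adipoq read 3485 and 3181 on the high-line arrays, 1678 and 1681 on the low-line arrays, and 138 and 97.5 on the control arrays. Cidec rose as well, and Fabp4 had no call (adjusted p = 0.0553 and 0.699). The part of other cell types in the Srf target result was not tested. Actg1, a cytoplasmic actin on the Srf list that was named after its values were seen, also rose. The part of other cell types in its rise was likewise not tested. Actg1 read 8043 and 8376 on the high-line arrays, 8067 and 8320.5 on the low-line arrays, and 6650 and 6700 on the control arrays. The rises were 0.30 and 0.29 (limma, adjusted p = 0.0037 and 0.00218). Its probe set, 1415779_s_at, carries the suffix described above for Srf, which marks probes that may match more than 1 gene. Vcl, vinculin, rose in the low line by 0.24 (adjusted p = 0.0106) and lay at 0.03 in the high line, with the call lost without the first low-line or the second control array.

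CArG boxes were found in 6 of 18 Srf target genes with a promoter entry, or 40.9% of their promoters, against 1.47% of all; the list was chosen from known targets, so this share describes the list. The stretches below belong to genes whose values are given above. Capitals mark the box in Acta1 (chr8:123894804-123894883, minus strand), Actc1 (chr2:114052878-114052957, minus strand), Actg1 (chr11:120348541-120348620, minus strand), Myl9 (chr2:156775268-156775347, plus strand) and Vcl (chr14:20929148-20929215, plus strand).
Acta1: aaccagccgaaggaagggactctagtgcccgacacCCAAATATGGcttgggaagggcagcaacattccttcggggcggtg
Actc1: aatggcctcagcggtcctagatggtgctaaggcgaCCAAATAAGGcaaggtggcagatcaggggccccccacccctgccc
Actg1: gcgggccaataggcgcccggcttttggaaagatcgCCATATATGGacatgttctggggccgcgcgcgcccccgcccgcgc
Myl9: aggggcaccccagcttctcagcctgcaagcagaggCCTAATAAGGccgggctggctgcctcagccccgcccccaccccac
Vcl: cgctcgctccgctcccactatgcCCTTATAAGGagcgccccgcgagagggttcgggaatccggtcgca
The genes with a box did not move alike: Myl9 rose in both lines by a similar amount, Acta1 rose more in the low line (-0.33 between the lines, adjusted p = 0.00484; lost without the first low-line array), and Actc1 was higher in the high line than in the low line (0.38, adjusted p = 0.00171; adjusted p = 0.213 with quantile normalization).

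**Figure D5:**
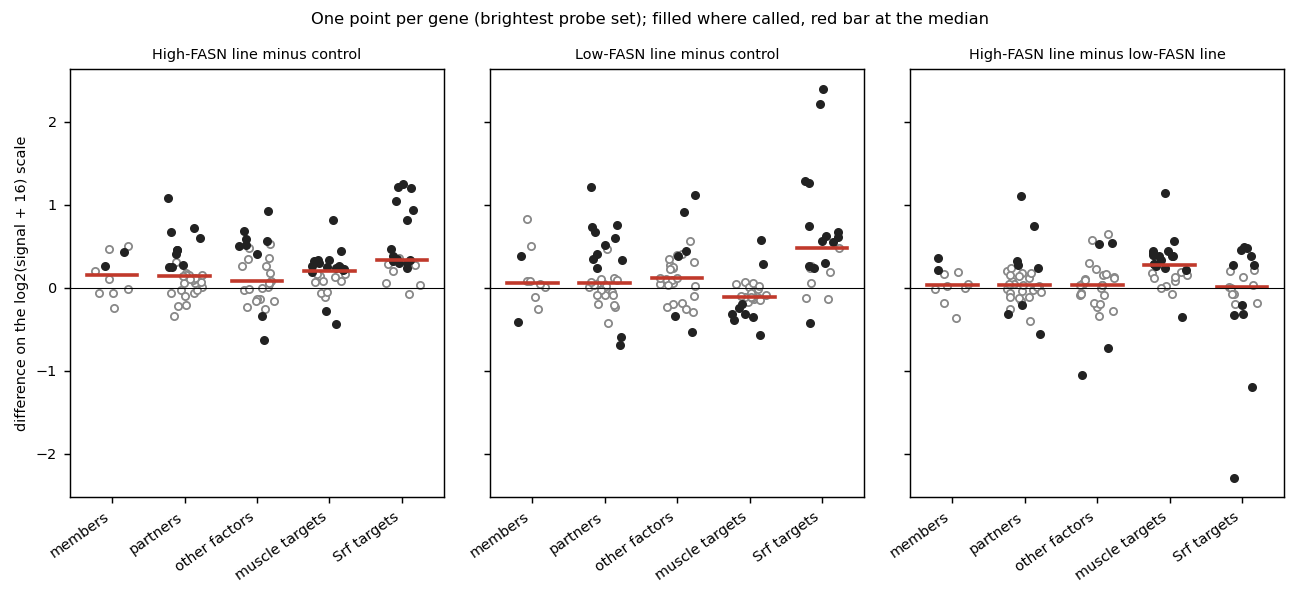
Difference on the log2(signal + 16) scale in the 3 comparisons for the brightest probe set of each gene of the 10 factors and the 4 lists; filled points were called and red bars mark the list's median. The medians of the Srf targets lie above 0 in both lines, at 0.33 and 0.47, with single genes below 0 such as Smtn in the low line at -0.43, and muscle targets have medians of 0.21 and -0.11 with the deposited scaling, on which their counts depend.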

How the data were processed

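The authors deposited 1 table of linear signal intensities per probe set and array, made with GCOS per the submitters' processing notes; its version, its summary method and the target of its scaling were not given in the sources used here. On these files the mean after trimming 2% at each end was 300.002 on every array, so the deposited scaling was kept. Of 45101 probe sets 64 controls were set aside, and 34945 of the rest had 1 symbol, 932 several and 9160 none in the annotation supplied; updating symbols through GRCm38.p6 altered 0. The array number limits the precision, and detection calls were not used here.

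For each probe set log2(signal + 16) was fitted with limma 3.58.1 (R 4.3.3) in 1 model of 3 group means over all 6 arrays (eBayes with trend, with 6.43 prior beside 3 residual degrees of freedom), two-sided, with Benjamini-Hochberg adjustment over the 22519 probe sets at or above the median mean. The model was also run on simulated data with independent noise and changes planted in the high line. Its outcome is not given here and is not used as support for the calls. Alternatives were quantile normalization, median centring, cyclic loess, pseudocounts of 1 and 64, no filter and a filter at the 75th percentile, no intensity trend, a fit on the 4 arrays of 1 comparison alone, a block on replicate number, 1 probe set (the brightest) for each gene, and leaving out each array.

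The 10 genes, the gene lists, the tests and the alternatives were chosen with earlier results of these data known. Every probe set of the 10 genes is named; of each list, up to 4 genes per comparison with the smallest p on their brightest probe set; of the marker lists, any gene; and the 2 genes nearest in pattern to each gene with a call. Acta1, Actg1 and Vcl were named after their values were seen, for the promoter stretches they carry, Smtn as the only Srf target that fell in the low line, and Elk1, Elk3, Mrtfa, Mrtfb, Csrp3, Ier2, Junb and Ccn1 to complete groups of related genes. Plots used matplotlib 3.10.9 (Python 3.11.15).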

Additional observations from a re-analysis of the deposited data

Results flagged for a closer look

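The following probe sets separated the high from the low line in limma's test of that difference itself (adjusted p below 0.05), given as the high line minus the low line on the log2 scale. Among the 10 factors these were Tbx20 1425158_at (0.59), Mef2a 1452347_at (0.21) and 1427186_a_at (0.21), Mef2c 1451506_at (-0.29) and 1424852_at (-0.31), and Mef2d 1434487_at (0.35). At Tbx20 1453351_at, at Mef2c 1421027_a_at and at Mef2a 1427185_at no such difference was called (-0.02, 0.02 and 0.03).

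Among partner genes the differences were 1.11 for Hdac5, 0.74 for Smarca4, 0.32 for Myocd, 0.27 for Fhl2, -0.56 for Lmcd1 and -0.32 for Elk4. Among other cardiac transcription factor genes they were -1.05 for Tbx18, -0.73 for Hey2, 0.54 for Heyl and 0.52 for Klf15. Among heart muscle targets they were 1.14 for Myh7, 0.56 for Tnnt2, 0.44 for Nppa, 0.41 for Myl2, 0.26 for Myl4, 0.23 for Des and -0.35 for Nppb. Among Srf targets they were -2.29 for Fos, -1.20 for Egr1, 0.46 for Tpm1 and 0.38 for Actc1. The Tpm1 value is that of its brightest probe set. Of its 4 tested probe sets 1 was called higher and 1 lower between the lines, over a range of -1.64 to 0.46. The difference of Heyl had an adjusted p of 0.0467 in limma and was kept in 7 of 16 alternatives, and that of Fhl2 in 12 of 17 (adjusted p = 0.76 with quantile normalization).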

How the results depend on the processing

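The 10 genes' called probe sets numbered 3, 5 and 6 in the high line against control, the low line against control and between the lines. The first count was 1 with median centring, with no filter on dim probe sets, with no intensity trend and with only the 4 arrays compared. The second was 2 with no filter, 2 with no intensity trend and 3 with the brightest probe set per gene (fewer probe sets counted). The third was 3 with no filter, 0 with no intensity trend and 2 with the brightest probe set per gene. Leaving out 1 array gave 1 to 5, 1 to 8 and 0 to 8. With the replicate number as a block the counts were 4, 6 and 6; deviations of same-numbered arrays correlated at only 0.000398 to 0.0396 between groups, so the numbers do not show that arrays were paired. The cause of these shifts was not tested. Of the calls, Mef2d 1434487_at in the high line passed in all 17 alternatives and Mef2c 1451507_at in the low line in all 16. Of 73 calls of named list genes, 35 passed in every alternative. Over all alternatives, 1107 values of the 10 genes kept their direction and side of the threshold, 74 lost the call, 22 gained one and 51 changed sign. For list genes these were 1536, 146, 24 and 19. None of the 70 sign changes was of a called difference. With quantile normalization the changed values were 0.039 for Tbx20 1453351_at in the high line, for the low line -0.039 for Hand2 1422221_at, 0.0045 for Nppa and -0.056 for Heyl; and between the lines 0.0032 for Nkx2-5, -0.0023 for Mef2a 1427185_at and -0.087 for Myl7. With median centring they were, in the low line, -0.010 for Tbx20 1453351_at, -0.0086 for Mef2a 1427186_a_at and -0.011 for Hand2 1422221_at. With cyclic loess they were, in the low line, -0.034 for Hand2 1422221_at, 0.036 for Nppa, 0.040 for Fhl2, -0.044 for Heyl, 0.028 for Myl2, 0.0068 for Actc1 and 0.011 for Tpm1; and between the lines 0.0025 for Nkx2-5 and -0.033 for Mef2a 1427185_at. Leaving out 1 array turned the sign of 33 uncalled differences, given here as ranges over the arrays left out. For the high line against control these were Gata4 1418863_at -0.28 to 0.15, Tbx5 1425695_at -0.38 to 0.24, Tbx20 1453351_at -0.066 to 0.044, Tbx20 1422219_a_at -0.18 to 0.13 and Mef2a 1421252_a_at -0.078 to 0.25. Also there: Mef2a 1442623_at -0.35 to 0.047, Mef2c 1424852_at -0.11 to 0.0035, Mef2d 1437300_at -0.23 to 0.22, Mef2d 1421388_at -0.22 to 0.025 and Hand1 1417525_at -0.14 to 1.06. Also there: Hand2 1422221_at -0.39 to 0.33, Srf 1418256_at -0.0059 to 0.20, Klf15 1448181_at -0.059 to 0.031 and Tbx18 1429974_at -0.31 to 0.029. For the low line against control these were Tbx5 1425695_at -0.42 to 0.20, Tbx5 1425694_at -0.30 to 0.0034, Tbx20 1453351_at -0.038 to 0.048, Mef2a 1427186_a_at -0.017 to 0.030 and Mef2a 1421252_a_at -0.24 to 0.011. Also there: Mef2a 1442623_at -0.017 to 0.95, Hand2 1422221_at -0.15 to 0.15 and Heyl 1438886_at -0.17 to 0.22. Between the lines these were Gata4 1418863_at -0.030 to 0.41, Nkx2-5 1449566_at -0.31 to 0.30, Tbx5 1425695_at -0.13 to 0.21, Tbx20 1453351_at -0.071 to 0.039 and Mef2a 1425426_a_at -0.11 to 0.26. Also there: Mef2c 1421027_a_at -0.028 to 0.075, Mef2c 1421028_a_at -0.12 to 0.16, Hand2 1422221_at -0.39 to 0.33, Irx3 1418517_at -0.016 to 0.070 and Nfatc2 1439205_at -0.60 to 0.22. Also there: Myl9 1452670_at -0.050 to 0.042. With 2 arrays a group the intervals of the dim probe sets are wide, and a signal near 47.0 is close to the filter, so values of Hand1, of the third Tbx20 and the second Hand2 probe set limit what can be said. Where an arm was left with 1 array, that array was taken to vary like the other groups.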
